A study of Mus musculus with 2 samples.

Results

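The 2 replication-dependent histone gene clusters of mouse chromosome 13 were examined as 590 bins of 1 kb, out of 2639020 bins on chromosomes 1 to 19 and X. The bins were defined by their position and not by their read counts. Earlier results of these data were known when the regions were chosen. Cluster 1 spanned 340 kb (mm9, chr13:21800001-22140000) and cluster 2 spanned 250 kb (chr13:23620001-23870000). They were set against the 1480 kb stretch between them, known for vomeronasal receptor genes, and against 500 kb on the outer side of each cluster. The series holds 2 libraries, both from mouse embryonic stem (ES) cells grown with the cytokine LIF and no feeder layer. One is a chromatin immunoprecipitation (ChIP-seq) made with a home-made rabbit antibody against mouse H2ABbd and amplified by 20 PCR cycles. The other is a methylated DNA immunoprecipitation (MeDIP) made with a mouse antibody against 5-methylcytosine (clone 33D3) and amplified by 15 cycles. Sonication also differs by label, at 200 to 400 bp for H2ABbd and 100 to 400 bp for 5mC. The labels give no strain, sex or line for the cells. Each deposited file is named after the antibody of the other sample, so each statement names the library by its sample label, as "the library labelled H2ABbd" or "the library labelled 5mC". If the file names are right and the labels wrong, every value below belongs to the other antibody. With 1 library per group no difference has a replicate check, and the 95% intervals below cover counting error only. An mm9 annotation was not used here, so the position of single genes within the bins, and the cluster boundaries themselves, were not checked.

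Replication-dependent histone genes make the bulk of the H1, H2A, H2B, H3 and H4 proteins during S phase, from short genes without introns whose transcripts end in a stem-loop and carry no poly(A) tail. H2A and H2B genes often stand head to head and share a promoter. H2ABbd, a shortened H2A variant that can take the place of H2A in a nucleosome, is made by other genes. In the RefSeq gene table the mouse genes named H2ab1, H2ab2 and H2ab3 lie on X. The vomeronasal type 1 receptor (Vmn1r) genes code for pheromone receptors of sensory neurons and are not known for activity in ES cells. MeDIP recovers DNA by its methylated cytosines, which in mouse lie mostly in CpG dinucleotides.

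RefSeq (GRCm38.p6, a later build, used here for names and gene order only) lists 54 protein-coding histone genes on chromosome 13. The run before the receptor genes, from H2bc13 to H2bc11, holds 23 of them, namely 1 H1, 7 H2A, 8 H2B, 2 H3 and 5 H4 genes, together with 31 transfer RNA genes and the protein-coding genes Zfp184, Pom121l2 and Prss16. The run after them, from H4c8 to H2ac1, holds 31, namely 5 H1, 6 H2A, 7 H2B, 7 H3 and 6 H4 genes, and no transfer RNA gene. Hfe, an iron-regulating gene, lies inside that run, and Trim38 and 4 Slc17a transporter genes separate its last pair, H2bc1 and H2ac1, from the others. Between the runs lie 36 receptor genes, 39 receptor pseudogenes and 46 transfer RNA genes, as well as Zfp322a, Abt1, Btn1a1 and Btn2a2, so the stretch between is not made of receptor genes alone.

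The promoters of the histone and receptor genes differ in their number of CpGs. In the 250 bases before the start, the 51 histone genes with an entry had a median of 9 CpGs (range 2 to 27), the 33 receptor genes a median of 1 (range 0 to 4), and the 27025 genes of the table a median of 6. The following RefSeq promoters (chromosome 13, GRCm38.p6, 5′ to 3′ on the strand of the gene, ending at the base before its start) are shown for that contrast, with each CpG in capitals. They are the first in gene order of the H1, H2A, H3 and H4 families and of the receptor genes. H1f5 (minus strand, 11 CpGs) codes for a linker histone. H2ac13 (plus strand, 10 CpGs) codes for an H2A and shares 272 bases of its RefSeq window, which runs on past the start, with the opposite strand of the H2B gene H2bc13 (11 CpGs). H3c10 (plus strand) has 6 CpGs, H4c11 (plus strand) has 15, and the receptor gene Vmn1r188 (plus strand) has 2.
H1f5: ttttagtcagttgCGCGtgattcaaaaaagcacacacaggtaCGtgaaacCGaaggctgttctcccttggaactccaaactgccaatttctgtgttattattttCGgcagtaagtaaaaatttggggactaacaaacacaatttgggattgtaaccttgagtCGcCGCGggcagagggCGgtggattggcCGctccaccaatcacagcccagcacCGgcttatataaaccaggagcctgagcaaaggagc
H2ac13: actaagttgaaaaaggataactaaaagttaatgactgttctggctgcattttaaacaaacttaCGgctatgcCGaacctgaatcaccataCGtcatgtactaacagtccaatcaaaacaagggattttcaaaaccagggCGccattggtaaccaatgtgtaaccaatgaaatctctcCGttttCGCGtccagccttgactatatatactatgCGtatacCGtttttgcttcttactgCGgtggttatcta
H3c10: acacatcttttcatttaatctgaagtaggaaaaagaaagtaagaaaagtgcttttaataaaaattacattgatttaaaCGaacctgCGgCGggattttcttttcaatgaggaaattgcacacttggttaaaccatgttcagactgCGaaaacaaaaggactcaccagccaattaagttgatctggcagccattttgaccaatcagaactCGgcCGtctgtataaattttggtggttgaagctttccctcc
H4c11: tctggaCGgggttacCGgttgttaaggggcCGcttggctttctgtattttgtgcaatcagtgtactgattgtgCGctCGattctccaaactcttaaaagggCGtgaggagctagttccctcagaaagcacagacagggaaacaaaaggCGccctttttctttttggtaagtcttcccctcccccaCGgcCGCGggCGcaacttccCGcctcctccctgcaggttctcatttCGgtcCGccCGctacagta
Vmn1r188: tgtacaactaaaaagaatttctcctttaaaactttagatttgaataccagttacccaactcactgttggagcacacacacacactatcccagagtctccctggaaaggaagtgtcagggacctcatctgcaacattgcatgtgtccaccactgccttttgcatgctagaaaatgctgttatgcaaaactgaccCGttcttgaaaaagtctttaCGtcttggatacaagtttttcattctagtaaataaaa

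The short words TATAAA and CCAAT, which resemble the TATA and CCAAT boxes of many promoters and of which the last letter of CCAAT may be the first of TATAAA, were searched on both strands of the same 250 bases. TATAAA was present in 51.0% of the histone promoters, in 18.2% of the receptor promoters and in 13% of the promoters of the same 27025 genes. CCAAT was present in 84.3%, 33.3% and 34.5% of them. Of the sequences shown, H1f5 and H3c10 held both words and H2ac13 held CCAAT alone. These are matches of letters, not mapped binding sites.

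**Figure D1:**
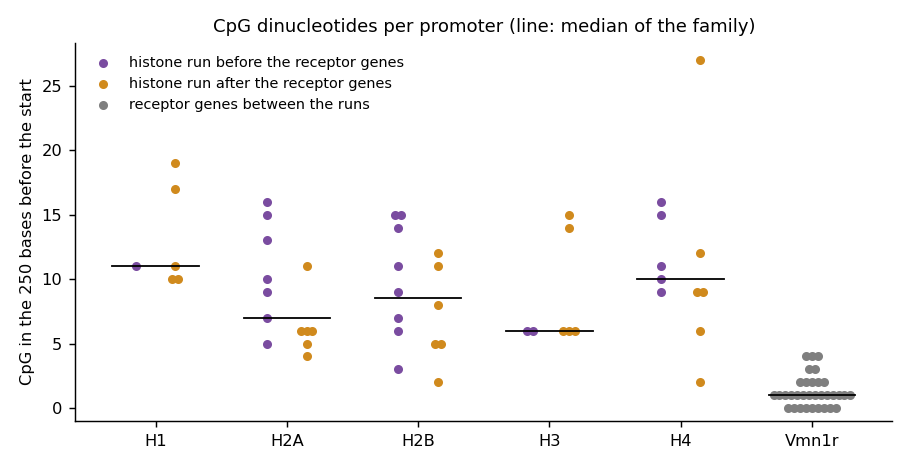
CpG dinucleotides in the 250 bases before the start of each gene (y axis) for the 5 histone families and the receptor genes (x axis), from RefSeq promoters. Each point is 1 gene, coloured by its run, and the line is the median of the family. The receptor genes lie at 0 to 4, and the histone genes between 2 and 27.

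In both libraries most of the 590 cluster bins held few reads. Reads at the same position and strand were counted once (distinct reads), and densities are in RPM, that is, distinct reads scaled to the distinct total of the library over chromosomes 1 to 19 and X. The clusters held 229 distinct H2ABbd reads and 2080 distinct 5mC reads, and the library labelled 5mC has 5.77 times as many over the same chromosomes. Of the bins, 77.1% were without an H2ABbd read (exact Clopper-Pearson interval 73.5 to 80.5%) and 7.80% without a 5mC read (5.76 to 10.3%). Few reads of the clusters lay on top of each other: 9.49% of the H2ABbd reads there repeated a position already seen, against 14.2% between the clusters, 17.1% in the flanks and 30.6% on all of chromosome 13. For 5mC the share was 3.17% in the clusters, against 3.05% between them, 4.55% in the flanks and 7.41% on the chromosome. The fullest bins held 11 distinct H2ABbd reads and 18 distinct 5mC reads.

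The library labelled 5mC was denser in the histone clusters than between them, while in the library labelled H2ABbd whether the interval of the ratio included 1 depended on the processing. In the library labelled H2ABbd the density was 0.293 RPM per kb in cluster 1 (0.246 to 0.346) and 0.258 in cluster 2 (0.207 to 0.317), against 0.242 between them (0.222 to 0.265). The clusters together stood at 1.15 times the stretch between (exact conditional interval 0.976 to 1.34), an interval that includes 1. It did not include 1 once the fullest 0.1% of bins in each library were dropped (1.22 times, 1.04 to 1.43). Of the regions compared, that setting took reads from the stretch between alone, which must raise the ratio. The clusters over the flanks stayed at 0.951 times. In the library labelled 5mC the density was 0.442 RPM per kb in cluster 1 (0.417 to 0.468) and 0.432 in cluster 2 (0.404 to 0.462), against 0.336 between them (0.325 to 0.346), which is 1.30 times for the clusters together (1.24 to 1.38). Counts also varied from window to window. In windows of 10 kb the H2ABbd count had a median of 3 in the clusters (quartiles 1 and 4, n = 59) and of 2 between them (1 and 4, n = 148). The 5mC count had a median of 34 in the clusters (quartiles 29 and 40) and of 26.5 between them (21 and 30.25), so the middle ranges overlapped slightly.

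The contrast with the outer flanks was smaller in 5mC, and in H2ABbd the interval of the ratio included 1. The H2ABbd density of the clusters was 0.951 times that of the flanks (0.806 to 1.12), and the 5mC density was 1.10 times (1.04 to 1.16). Each side gave its own value. Cluster 1 stood at 1.20 times its own flank in the library labelled H2ABbd (0.954 to 1.51) and at 1.17 times in the library labelled 5mC (1.09 to 1.27). Cluster 2 stood at 0.756 times its own flank in H2ABbd (0.587 to 0.968), that flank being the densest of the 5 regions in this library, and at 1.03 times in 5mC (0.944 to 1.11). The stretch between the clusters was lower than the flanks in both libraries, at 0.830 times for H2ABbd (0.727 to 0.948) and 0.842 times for 5mC (0.803 to 0.882). The difference between the clusters and the stretch between them thus includes the low level of that stretch.

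**Figure D2:**
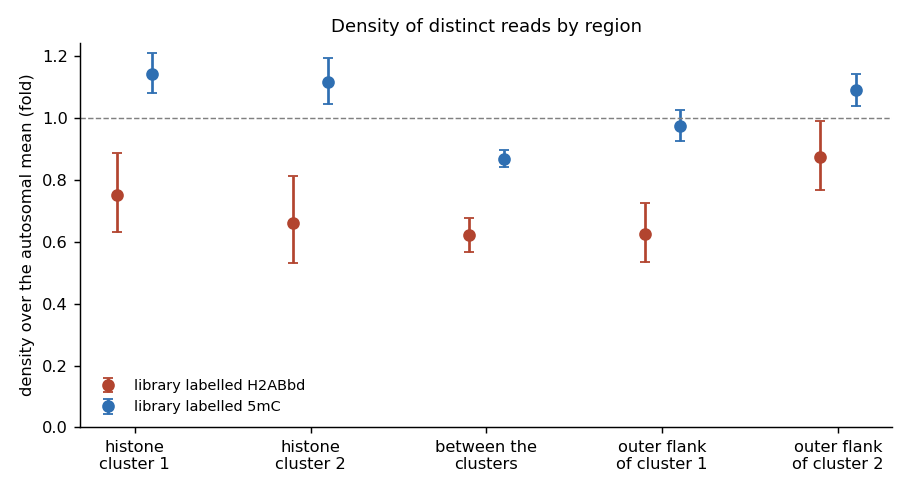
Density of distinct reads over the autosomal mean of the same library (y axis, fold) in the 2 histone clusters, the stretch between them and the outer flanks (x axis), for both libraries by label. Points are the values and bars the exact Poisson 95% intervals. The clusters lie at 0.751 and 0.661 in H2ABbd and at 1.14 and 1.12 in 5mC, and the stretch between lies at 0.622 and 0.869.

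Among autosomal windows of the same length neither cluster was extreme. In the library labelled H2ABbd cluster 1 was denser than 47.8% of 7045 windows of 340 kb, and cluster 2 than 39.7% of 9589 windows of 250 kb. In the library labelled 5mC they were denser than 65.0% and 63.1%. The ratio of the libraries was low over most of the neighbourhood. H2ABbd over 5mC, each in RPM, was 0.635 in the clusters (0.551 to 0.728), 0.662 in cluster 1 and 0.597 in cluster 2, against 0.722 between them (0.657 to 0.793) and 0.892 on the whole of chromosome 13 (0.884 to 0.900). The flank of cluster 1 was as low as the clusters, at 0.647 (0.549 to 0.758), and the flank of cluster 2 stood at 0.809 (0.704 to 0.927). Of the windows of the same length, 15.6% had a lower ratio than cluster 1 and 10.6% a lower ratio than cluster 2. The stretch between the clusters ranked alike, with 11.4% of 1615 windows lower, and so did the flank of cluster 1, with 10.1% of 4791. Were the labels exchanged, the ratio in the clusters would read 1.58 (1.37 to 1.81), above that of 84.4% of windows for cluster 1 and 89.4% for cluster 2. The value also depends on repeat reads: with all of them kept it was 0.311, or 3.21 turned round. Over chromosomes 1 to 19 and X, 1396198 of 3501460 H2ABbd reads and 8051714 of 9260168 5mC reads were distinct. In the clusters only 9.49% and 3.17% of reads were repeats. The change of the ratio thus lies in the totals by which the counts are scaled, that is, in repeat reads outside the clusters.

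Along the locus the H2ABbd level showed no step at the cluster edges, while the 5mC level was lower past the inner edge of cluster 1 and higher again before cluster 2. In consecutive pieces of 100 kb the H2ABbd counts were 28, 65 and 27 in cluster 1, with 19 in its last 40 kb, and 25 and 55 in cluster 2, with 10 in its last 50 kb, against 21 to 62 in the pieces of 100 kb between. Cluster 1 held 353, 370 and 350 distinct 5mC reads, with 137 in its last 40 kb, and the first 100 kb after it held 238. From there to 23240000 the pieces held 215 to 283 reads. The next pieces held 286, 314 and 338 reads, with 258 in the last 80 kb, so the level was already higher before cluster 2 began, and the first 100 kb of cluster 2 held 387.

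**Figure D3:**
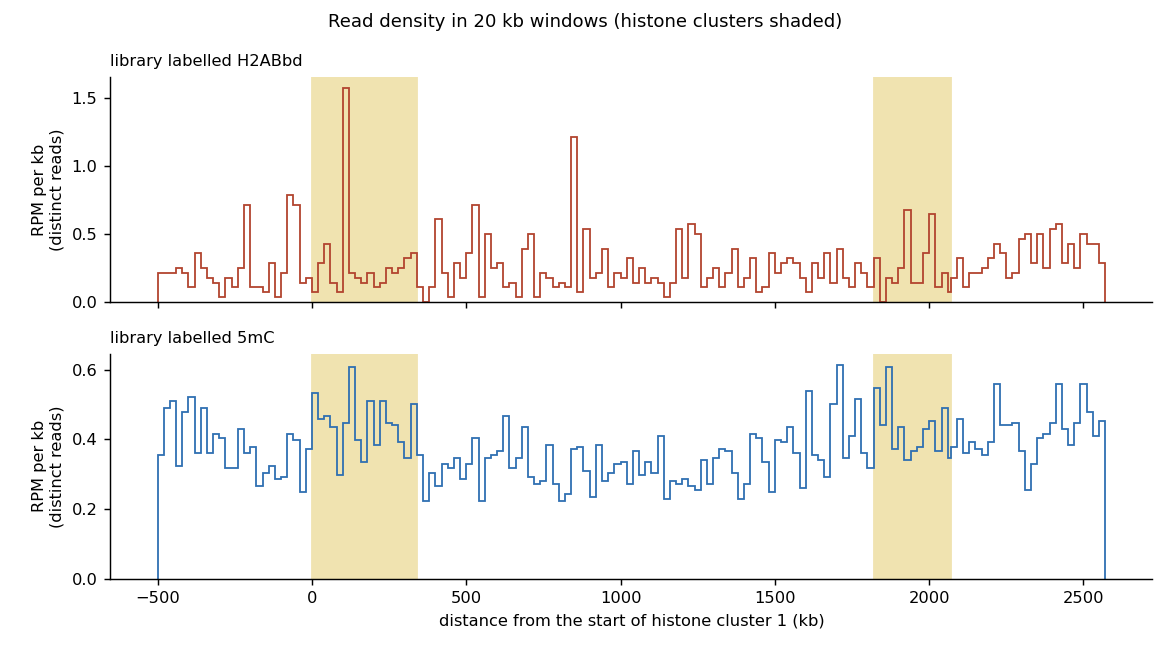
Density of distinct reads (y axis, RPM per kb) in 20 kb windows along the locus (x axis, distance from the start of cluster 1), with the library labelled H2ABbd above and the library labelled 5mC below. The clusters are shaded. In H2ABbd a single stretch of cluster 1 reaches beyond 1.5 RPM per kb, and in 5mC the level is higher over cluster 1 than over most of the stretch after it.

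Few bins of the clusters stood out in the library labelled H2ABbd, and they held 52 of its 229 reads there (22.7%). Bins called in the same way, as defined below, held 15.0% of the H2ABbd reads between the clusters and 7.84% in the flanks. They held 9137 of 55050 on chromosome 13 and 302628 of 1396198 over chromosomes 1 to 19 and X. Bins called for their high counts must hold many reads, so this share is not particular to the clusters. The variance of the counts over bins was 2.98 times the mean in the clusters, against 3.85 between them and 4.68 on chromosome 13. A bin was called enriched where its Poisson tail, adjusted by Benjamini-Hochberg over all 2299806 bins with a read in either library, was at most 0.01 and its count at least 4 times the mean of such bins on its chromosome. On chromosome 13 this took at least 6 distinct H2ABbd reads or 14 distinct 5mC reads. Of the 590 cluster bins 553 held a read and could be called. In the library labelled H2ABbd 6 of the 553 were enriched, or 1.08% (0.399 to 2.35%), against 1.18% of bins over chromosomes 1 to 19 and X and 0.854% on chromosome 13. This share is near the background. Between the clusters 7 of 1361 bins were enriched (0.514%), and in the flanks 5 of 945 (0.529%).

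Of these 6 bins 4 lay in cluster 1, and 3 of the 4 within a few kb of each other. The bin at 21859001 to 21860000 held 10 distinct reads, 19.3 times the chromosome mean (9.24 to 35.4), where the bins on either side held 1 and 0. The bins at 21907001, 21908001 and 21910001 held 6, 7 and 10 reads (11.6, 13.5 and 19.3 times the mean). The 20 kb from 21900001 to 21920000, singled out after its values were seen, held 44 of the 139 H2ABbd reads of cluster 1 (31.7%) and 72 of its 1210 5mC reads (5.95%). Its density was 7.41 times that of the rest of cluster 1 in H2ABbd (5.06 to 10.7) and 1.01 times in 5mC (0.786 to 1.29). Since it is the fullest stretch of the clusters, leaving it out alone must lower their H2ABbd density, which was then 0.959 times that between them (0.806 to 1.14) and 0.795 times that of the flanks (0.665 to 0.949). With the enriched bins left out of every region instead, the clusters stood at 1.02 times the stretch between (0.848 to 1.22) and at 0.784 times the flanks (0.649 to 0.944). In cluster 2 the bin at 23736001 to 23737000 held 11 H2ABbd reads (21.2 times the mean, 10.6 to 37.9) with 1 and 2 reads in the bins beside it, and the bin at 23804001 to 23805000 held 8 (15.4 times, 6.65 to 30.4).

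The stretch between the clusters held a fuller bin than any of these, at 22641001 to 22642000, with 31 H2ABbd reads (59.7 times the mean, 40.6 to 84.8) and 10 of 5mC (2.98 times). Some windows of the clusters held no H2ABbd read. In cluster 1 the windows of 10 kb from 21810001 and from 21840001 held 0 distinct reads beside 37 and 35 of 5mC, and in cluster 2 those from 23640001, 23650001 and 23750001 held 0 beside 34, 37 and 38.

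In the library labelled 5mC 8 of the 9 enriched bins of the clusters lay in cluster 2, a split that depends on the threshold. There 8 of 226 bins were enriched, or 3.54% (1.54 to 6.86%), against 0.508% of bins over chromosomes 1 to 19 and X and 0.431% on chromosome 13. In cluster 1 it was 1 of 327 (0.306%), between the clusters 1 of 1361 (0.0735%) and in the flanks 3 of 945 (0.317%). Densities of the 2 clusters were alike in this library (cluster 2 over cluster 1 0.978 times, 0.895 to 1.07), but the reads of cluster 2 were less evenly spread. The variance over bins was 2.97 times the mean in cluster 2 and 1.61 times in cluster 1, against 1.45 between the clusters, and 10.8% of the bins of cluster 2 held no 5mC read against 5.59% in cluster 1. Just under the level of a call, at 10 to 13 reads, stood 11 bins of cluster 1 (3.24%) and 7 of cluster 2 (2.80%), against 0.608% of bins between the clusters, 1.30% in the flanks and 1.34% on chromosome 13. With the mean taken over all bins of the chromosome, empty ones included, 4 bins of cluster 1 and 9 of cluster 2 were enriched, where 0.928% of bins over chromosomes 1 to 19 and X were.

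The enriched 5mC bins of cluster 2 were spread along its length, some of them close together, as the plot of every 1 kb bin shows. The fullest, at 23804001 to 23805000, held 18 distinct reads (5.37 times the mean, 3.18 to 8.48), with 2 and 3 in the bins beside it, and it was the only cluster bin enriched in both libraries. The bin at 23666001 held 17 reads after a bin of 11, that at 23623001 held 16, and those at 23702001 and 23703001, which adjoin, held 15 and 14. The bin at 23776001 held 15 reads after a bin of 10, and those at 23662001 and 23852001 held 14 each. The enriched bin of cluster 1, at 21925001 to 21926000, held 15. These folds, of 4.17 to 5.37, lie close to the threshold of 4. None of the 9 bins passed at 8 times the mean, where 0.0771% of bins over chromosomes 1 to 19 and X passed.

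**Figure D4:**
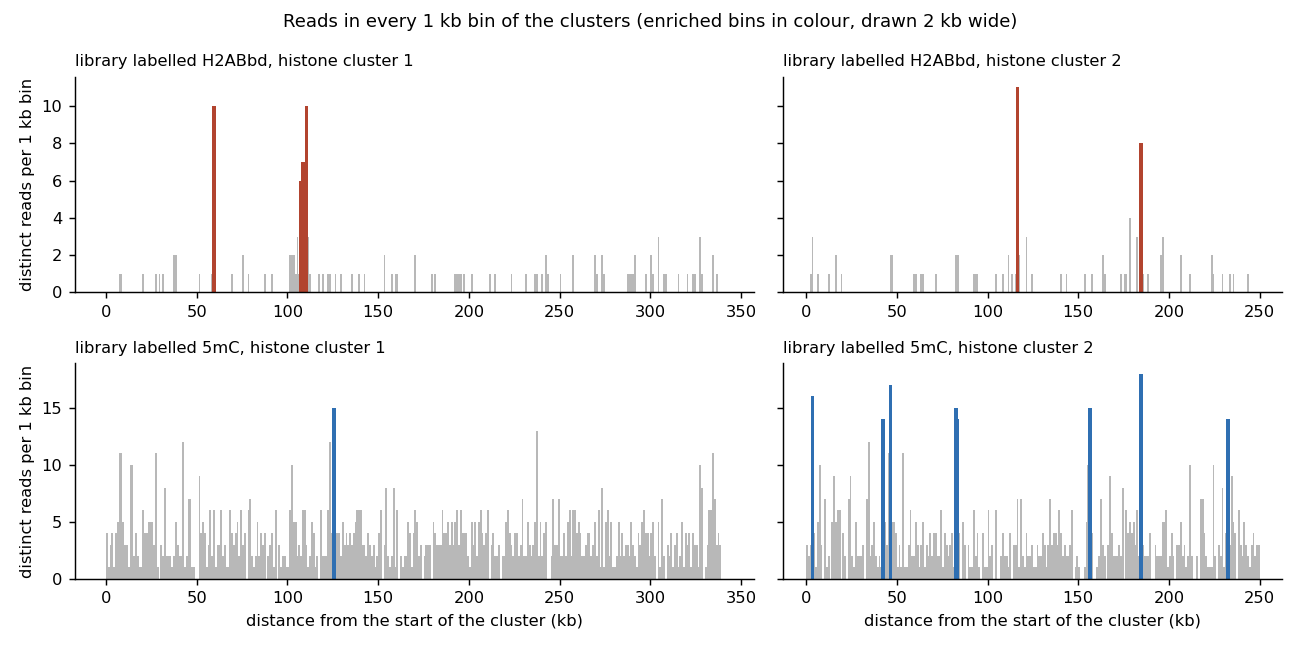
Distinct reads in every 1 kb bin (y axis) along cluster 1 (left) and cluster 2 (right), by distance from the start of the cluster (x axis, kb), for the library labelled H2ABbd (top) and the library labelled 5mC (bottom). Enriched bins are coloured. The 6 enriched H2ABbd bins hold 6 to 11 reads, and 8 of the 9 enriched 5mC bins stand in cluster 2.

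The cluster bins enriched in 1 library held on average more reads of the other library than the rest of the cluster bins. The 9 bins enriched in 5mC held a mean of 1.89 H2ABbd reads, against 0.365 in the other cluster bins, though 4 of the 9 held none. At the sparse depth of that library 0 reads in a bin still allow up to 7.11 times the chromosome mean. The 6 bins enriched in H2ABbd held a mean of 7.00 5mC reads against 3.49 elsewhere. Leaving out the bin at 23804001, picked because it was enriched in both, must lower these means. They were then 1.13 H2ABbd reads over 8 bins and 4.80 5mC reads over 5 bins, still above 0.365 and 3.49. In cluster 1 the single bin enriched in 5mC held 0 H2ABbd reads, against a mean of 0.410 in its other bins. The excess was not particular to the clusters. Bins enriched in H2ABbd held a mean of 5.57 5mC reads between the clusters (2.69 in the other bins) and 7.40 in the flanks (3.19). Those enriched in 5mC held 5 H2ABbd reads between the clusters (1 bin, against 0.335) and a mean of 2.33 in the flanks (3 bins, against 0.402). Across the 590 bins the counts of the libraries had a Pearson r of 0.232 and a Spearman rho of 0.178, and across the 59 windows of 10 kb these were 0.151 and 0.184. The bins share libraries, base composition and how well reads can be placed, so these values are a description. They were of like size between the clusters (r = 0.204 over 1480 bins).

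The enriched bins of the clusters drew most of their reads from the plus strand. Of the 52 H2ABbd reads in the 6 enriched bins 44 lay on the plus strand, 84.6% (71.9 to 93.1%), and of the 138 5mC reads in the 9 enriched bins 105 did, 76.1% (68.1 to 82.9%). All 6 and all 9 bins had more plus than minus reads. In the rest of chromosome 13 this held for 554 of 900 enriched H2ABbd bins (61.6%) and 261 of 448 enriched 5mC bins (58.3%). The bin at 21859001 held 10 plus and 0 minus H2ABbd reads, and that at 23623001 held 14 plus and 2 minus 5mC reads. In the other bins of the clusters the plus strand held 53.7% of H2ABbd reads (46.0 to 61.2%) and 55.9% of 5mC reads (53.7 to 58.1%). Over chromosomes 1 to 19 and X it held 54.6% and 52.8%, so both libraries leaned slightly to that strand as a whole. In enriched bins of chromosome 13 it held 61.2% of H2ABbd reads and 55.3% of 5mC reads. Single bins varied widely, and the intervals over reads do not cover that spread. Over the enriched bins of that chromosome outside the clusters the median was 62.5% in H2ABbd (900 bins, range 0 to 100%) and 53.3% in 5mC (448 bins, 3.33 to 100%). Inside the clusters the median was 83.8% over the 6 H2ABbd bins (66.7 to 100%) and 78.6% over the 9 5mC bins (57.1 to 87.5%). Bins outside the clusters leaned too in H2ABbd: the 5 enriched bins of the flanks had 87.5% of their reads on the plus strand (71.0 to 96.5%), and the 7 between the clusters had 64.0% (52.1 to 74.8%). In 5mC the 3 enriched bins of the flanks had 53.1% (38.3 to 67.5%).

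**Figure D5:**
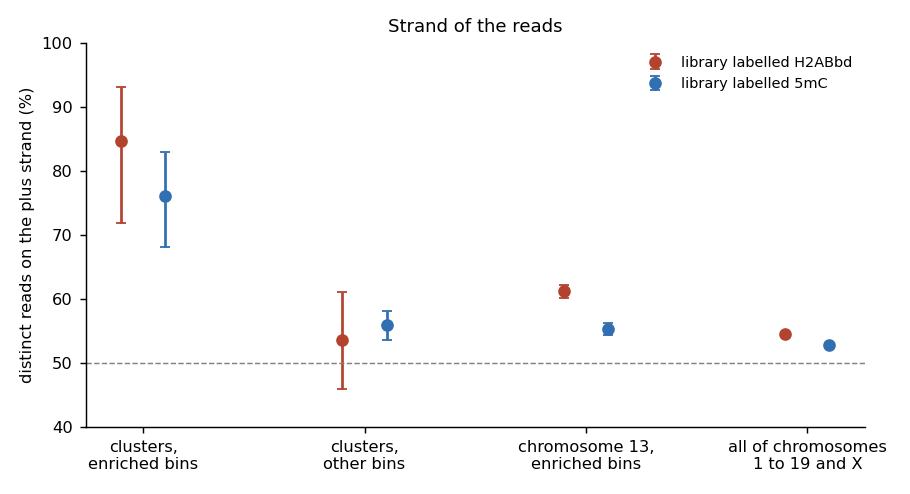
Share of distinct reads on the plus strand (y axis, percent, starting at 40) in the enriched and the other bins of the clusters, in all enriched bins of chromosome 13, and over chromosomes 1 to 19 and X (x axis), for both libraries by label. Bars are exact Clopper-Pearson 95% intervals over reads, which do not cover the spread from bin to bin. The enriched cluster bins lie at 84.6% and 76.1%, above the 54.6% and 52.8% of the libraries.

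Called on 1 strand alone, 5 H2ABbd bins and 6 5mC bins of the clusters were enriched on the plus strand, where the background was 0.674% and 0.242% of bins, and 0 and 0 on the minus strand, where it was 0.414% and 0.187%. With 444 cluster bins to call on the minus strand, a count of 0 lies near that background. The H2ABbd density of the clusters over the stretch between was 1.24 times on the plus strand (1.00 to 1.52, the lower bound lying just above 1) and 1.03 times on the minus strand (0.797 to 1.32). The 5mC density was 1.33 times on the plus strand (1.24 to 1.43) and 1.27 times on the minus strand (1.17 to 1.38). Over the flanks the 5mC density was 1.17 times on the plus strand (1.09 to 1.27) and 1.01 times on the minus strand (0.928 to 1.10), where the interval includes 1.

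Copies of histone genes resemble each other, and the handling of reads with several possible positions is not stated in the labels. Of the 51 histone promoters 8 held a stretch of 42 bases, the length of a read, that recurs at another place among the RefSeq promoters, and all 8 belong to the run before the receptor genes. For H2bc23 and H4bc24, both H2B genes, every such stretch recurs elsewhere (100%), for H4c17 and H4c18 94.2% and for H2ac23 87.3%. None of the 28 promoters of the run after the receptor genes held one. Of the 33 receptor promoters 16 did, up to 51.4% of the stretches in Vmn1r189 and Vmn1r221. This count took the whole RefSeq window, which runs on past the start, and did not cover the rest of the gene. Bins without a read of either library made up 3.82% of cluster 1 and 9.60% of cluster 2, against 8.04% between the clusters and 5.60% and 5.40% of the flanks, with no run longer than 3 kb in any of these regions. The part of read placement in the densities, the enriched bins and their strand was not tested.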

How the data were processed

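The 2 immunoprecipitated DNA libraries of mouse ES cells were grouped by their sample labels. The submitters' processing notes name FastQC, Bowtie and the build mm9. Each deposited file lists 1 aligned read of 42 bp per line, 3503839 (H2ABbd) and 9266471 (5mC), leaving aside 8 and 1 lines with broken fields. The deposited score is 255 on every unbroken line and was not used. Of chromosomes 1 to 19 and X, 1396198 and 8051714 distinct reads (position and strand) were kept, each moved by 100 bp towards its 3′ end, and counted in 1 kb bins. Enriched bins were called as the report states. Ratios carry exact conditional intervals, counts exact Poisson and shares exact Clopper-Pearson intervals, all at 95%. Since the PCR reads carry no molecular identifiers and may repeat a molecule, the intervals cover counting error only. The calling step and the ratio interval were run on simulated Poisson counts, around a constant mean except in bins raised on purpose. Counts of the cluster bins spread more widely, with a variance of 2.98 times the mean in H2ABbd and 2.18 times in 5mC. The simulation therefore does not show how either step performs on such counts. Windows of the same length were tiled over the 19 autosomes, keeping those where at least 50% of bins held a read.

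The regions, the gene lists and the tests were chosen with earlier results of these data known. Named are all enriched cluster bins, the cluster windows of 10 kb without an H2ABbd read, and the first gene of each histone family. The fullest windows of 10 kb are not listed. H4bc24 was counted as an H2B gene by its older name Hist1h2br. Alternatives covered read handling, strand, depth, bin size, thresholds and region limits, and those that leave out enriched bins or the 20 kb stretch, or call bins on 1 strand, were added after the data were seen. Proteins of the histones were not analysed here. Python 3.11.15, numpy 2.4.6, scipy 1.17.1, pandas 2.3.3 and matplotlib 3.10.9 were used.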

Additional observations from a re-analysis of the deposited data

How the results depend on the processing

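Over the 7 main values and their alternatives, 88 in all, 68 stayed within the interval of the reported value, or within 1.5 times the count. The 5mC excess of the clusters over the stretch between kept its direction throughout, and fell to 1.18 times (interval 1.04 to 1.35) with that library thinned to the distinct reads of the other. Over the flanks 5mC was 0.999 times when thinned (0.871 to 1.14), which takes it just below 1, 1.17 times on the plus strand, 1.01 times on the minus strand and 1.17 times with flanks of 250 kb. Without the enriched bins of either library in every region it was 1.06 times (0.998 to 1.12), where the interval includes 1. The H2ABbd density over the stretch between was 1.5 times by the median of 10 kb windows (3 reads against 2). It was 1.22 times once the fullest 0.1% of bins in each library were dropped (1.04 to 1.43, an interval above 1). That took reads from the stretch between alone, which must raise the ratio. Without 21900001 to 21920000 the ratio was 0.959 times, where the clusters alone lost reads, which must lower it. Over the flanks the H2ABbd density of the clusters was 0.795 times without those 20 kb and 0.784 times without the enriched bins. It was 1.00 times on the plus strand and by the median of 10 kb windows, and 0.882 times on the minus strand. The ratio of the libraries in the clusters was 0.311 with all reads kept, 0.509 by the median of windows, 0.505 without the enriched bins and 0.531 without the 20 kb (with labels exchanged 3.21, 1.97, 1.98 and 1.88, against 1.58 as reported). Enriched H2ABbd bins were 3 at an adjusted tail of 1e-05 (background 0.383%) and 0 on the minus strand. Enriched 5mC bins were 0 at 8 times the mean, 1 at 1e-05 (background 0.205%), 0 in 5 kb bins (0.176%), 0 when thinned (0.0550%) and 0 on the minus strand. For the ratio of the libraries with all reads kept, the change lies in the totals by which the counts are scaled. The cause of the other changes was not tested, beyond the reads or bins each leaves out. No paired analysis was possible because each group has 1 library. The library labelled H2ABbd has a mean of 0.388 reads per cluster bin, which limits its precision.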
